A study of Mus musculus with 2 samples.

Results

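Membrane trafficking genes were followed through the peaks of a Rac1 antibody in the mouse retina. They were taken by symbol as Rab GTPases and Rab-named effectors, Vps, sorting nexin (Snx) and Sec genes, subunits of the clathrin adaptor (AP) and COPI coats, Arf GTPases, syntaxins, Vamps and synaptotagmins, with pseudogenes left out. The rule covers 242 protein-coding symbols of the RefSeq annotation, and 56 of them carried a peak in at least 1 of the lists. In the retina with chronic ocular hypertension (COH) 23 of 1711 peaks, on 22 genes, belonged to them, and in the control retina 49 of 3078 peaks, on 47 genes. CUT&Tag was used, a method in which Tn5 transposase, tethered to the antibody inside nuclei, cuts and tags nearby DNA. The COH library came from wild-type C57BL/6 mice, 7 weeks old, 1 week after ocular hypertension had been induced, and the control library from untreated wild-type C57BL/6 mice of the same age. There was 1 library per condition, the sources used here do not state the number of retinas in each or the way the pressure was raised, and both libraries were made with the same antibody, so that none made with a control antibody enters below. Without replicates no difference between COH and control was tested. Ranges beside a percentage are exact 95% Clopper-Pearson intervals, which cover counting error only.

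Membrane traffic moves cargo between organelles in vesicles. Rab and Arf GTPases mark each compartment and recruit its effectors, the COPII, COPI and clathrin adaptor coats bend the membrane and select cargo, retromer and its partners return cargo from endosomes, and SNARE proteins (syntaxins and Vamps) drive fusion. In retinal neurons the same machinery carries opsins to the outer segment, releases transmitter at ribbon and conventional synapses, with synaptotagmins as calcium sensors, and supplies endosomes along the axons of ganglion cells. Rac1 is a small GTPase that controls actin at membranes, and the antibody was raised against it, so a peak reports signal of that antibody at a genomic site and does not measure expression of the gene.

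Gene starts near which the lists overlapped are shown first. Overlapping peaks near the start carried the member's own name in both lists for 9 members. For 6 of these 9 the RefSeq promoter table (GRCm38.p6) holds a single start. The 200 bases before that start follow, 5′ to 3′ on the strand of the gene. A further sequence is that of Vps26c, a member with a promoter peak in COH alone. Capitals mark GC boxes (GGGCGG), ETS cores (CCGGAAG) and CCAAT boxes, each searched on both strands.
Rab1a, chr11:20201212-20201411, plus strand: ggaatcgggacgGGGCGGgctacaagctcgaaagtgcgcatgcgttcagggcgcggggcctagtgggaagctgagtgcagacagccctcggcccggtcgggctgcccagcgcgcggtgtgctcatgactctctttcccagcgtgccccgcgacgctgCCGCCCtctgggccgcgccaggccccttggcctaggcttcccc
Rab11a, chr9:64737757-64737956, minus strand: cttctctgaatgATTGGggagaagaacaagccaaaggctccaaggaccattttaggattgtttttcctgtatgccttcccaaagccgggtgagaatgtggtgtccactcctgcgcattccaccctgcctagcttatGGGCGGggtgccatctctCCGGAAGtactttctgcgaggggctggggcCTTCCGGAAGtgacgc
Rab33b, chr3:51483766-51483965, plus strand: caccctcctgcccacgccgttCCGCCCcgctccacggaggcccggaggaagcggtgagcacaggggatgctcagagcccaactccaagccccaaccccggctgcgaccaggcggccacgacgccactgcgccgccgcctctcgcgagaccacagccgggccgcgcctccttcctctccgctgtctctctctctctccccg
Rab40c, chr17:25919715-25919914, minus strand: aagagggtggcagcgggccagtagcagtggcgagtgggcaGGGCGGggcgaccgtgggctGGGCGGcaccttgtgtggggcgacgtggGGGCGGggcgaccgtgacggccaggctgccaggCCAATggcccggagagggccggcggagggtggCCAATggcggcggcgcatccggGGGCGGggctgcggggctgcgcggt
Copg2, chr6:30896795-30896994, minus strand: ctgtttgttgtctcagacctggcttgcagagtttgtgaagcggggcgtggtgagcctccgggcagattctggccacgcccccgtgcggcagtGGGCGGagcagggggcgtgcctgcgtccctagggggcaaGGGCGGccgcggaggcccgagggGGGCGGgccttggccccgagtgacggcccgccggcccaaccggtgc
Sec16a, chr2:26445217-26445416, minus strand: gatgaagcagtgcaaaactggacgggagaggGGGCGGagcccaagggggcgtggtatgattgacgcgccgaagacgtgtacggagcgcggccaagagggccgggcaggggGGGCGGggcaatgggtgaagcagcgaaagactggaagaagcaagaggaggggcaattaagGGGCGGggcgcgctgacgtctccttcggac
Vps26c, chr16:94526630-94526829, minus strand: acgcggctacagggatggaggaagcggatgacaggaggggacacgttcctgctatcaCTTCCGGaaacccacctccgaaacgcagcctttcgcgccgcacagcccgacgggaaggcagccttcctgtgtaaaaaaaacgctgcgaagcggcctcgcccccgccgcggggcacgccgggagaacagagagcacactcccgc

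All 6 shared starts shown hold a GC box, with 4 boxes in Rab40c. The lists also overlapped at Ap4b1, where the COH peak carried another gene's name, and that start is not printed. The 200 bases before the single Ap4b1 start hold none of these motifs. In the longer windows used below, 70.1% of members without a peak near their start had a GC box. The Rab11a start ends in ETS cores on both strands that overlap each other, with first bases at -16 and -13 counted from the start. The peak positions below are those of the lists, of uncertain genome build: mm9 is named in the submitters' processing notes, and only 93 of 3175 genes had a start within 100 bp of the one in GRCm38.p6. Hence the printed windows were matched to the peaks by gene symbol and not by coordinate. The printed bases need not hold the peaks. By the lists' own distances, the Copg2 and Rab33b peaks began after the start in both lists. The Rab1a summits, at -307 bp in COH and -308 bp in control, lay before the printed span. The Rab11a control summit, at -162 bp, lay within it.

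Trafficking genes carried peaks in both retinas, more of them in control. In COH 22 of 242 (9.09%, 5.79 to 13.4) had a peak, beside 5.38% of 21900 protein-coding genes, and in control 47 (19.4%, 14.6 to 25.0), beside 10.8%. A peak in both lists was found for 13 members (5.37%, 2.89 to 9.01), beside 3.53% of all protein-coding genes. A peak in COH without any in control was found for 9 members (3.72%, 1.71 to 6.94), beside 1.86%, and a peak in control without any in COH for 34 (14.05%, 9.93 to 19.1), beside 7.26%. The other 186 members had no peak in either list, which does not show that they lack the signal, since the lists hold only sites past a threshold. Among those without a peak were Rab5a and Rab7 of the early and late endosome, the synaptic vesicle gene Rab3a, the retromer subunit Vps35, and Stx1a, Vamp2 and Syt2, which serve transmitter release.

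The families did not share the same balance between the retinas. Vps genes were the only family with more members in COH, 6 of 35 (17.1%, 6.56 to 33.6), than in control, 3 of 35 (8.57%, 1.80 to 23.1). Rab genes had 6 of 69 (8.70%, 3.26 to 18.0) in COH and 14 (20.3%, 11.6 to 31.7) in control. Sorting nexins had 1 of 30 (3.33%) in COH and 6 (20.0%) in control, and Sec genes 3 of 28 (10.7%) in COH and 8 (28.6%) in control. Adaptor subunits had 2 of 26 in COH and 6 in control, COPI and Arf genes 1 of 14 in COH and 4 in control, syntaxins and Vamps 2 of 23 in COH and 3 in control, and synaptotagmins 1 of 17 in COH and 3 in control. The intervals of the COH and control shares overlapped in every family, and the difference in balance between families was not tested.

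**Figure D1:**
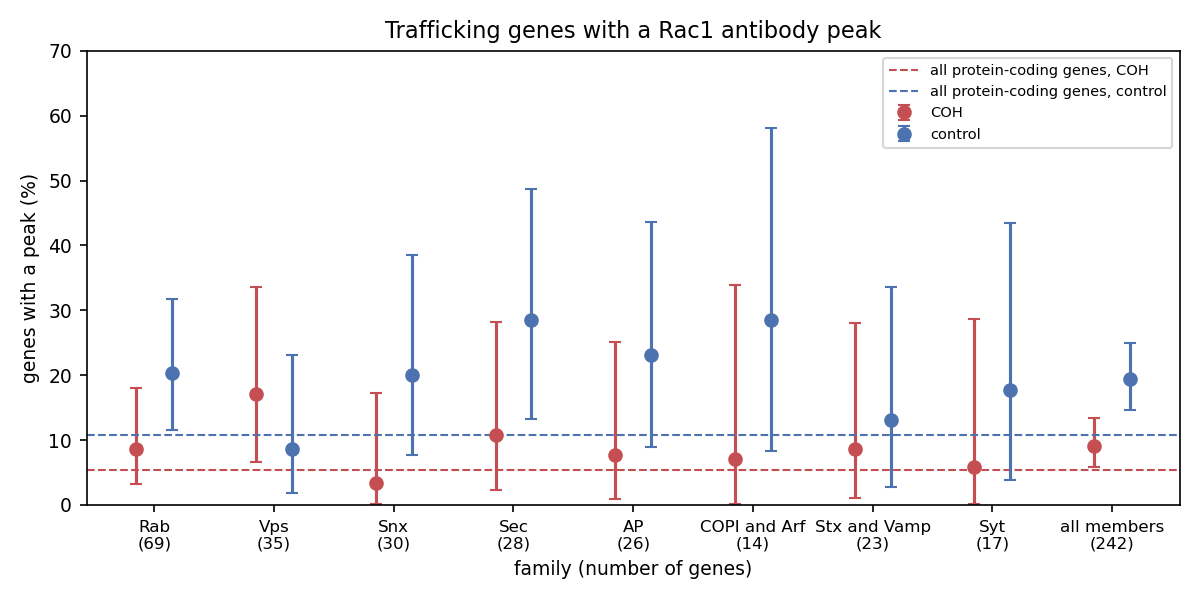
Share of the genes of each family with at least 1 peak (y axis, percent) in COH and in control, with exact 95% intervals; the dashed lines give all protein-coding genes, 5.38% in COH and 10.8% in control. The control point lies above the COH point in all families but Vps, where COH has 17.1% and control 8.57%.

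Rab1a, Rab11a, Rab33b and Rab40c had overlapping peaks in COH and control. Rab1a directs traffic from the endoplasmic reticulum (ER) to the Golgi. Its promoter peak reached pileup 27 (reads stacked at the summit, scaling not stated) and fold 7.36 over background in COH, against pileup 21 and fold 5.20 in control. The COH peak lay at 20150935 to 20151417 and the control peak at 20150864 to 20151405 on chromosome 11, and their summits were 1 bp apart, at -307 bp in COH and -308 bp in control from the transcription start site (TSS). It ranked 319 of 1711 by fold in COH and 1576 of 3078 in control. Rab11a, which governs recycling endosomes, had a promoter peak with pileup 13 and fold 4.75 in COH, against pileup 22 and fold 6.84 in control, across the TSS in both. The Rab11a peak spanned 64644790 to 64645345 on chromosome 9 in COH, with -log10 q 3.86, and 64644723 to 64645347 in control, with -log10 q 10.6. A second control peak assigned to Rab11a lay 65960 bp downstream in an intron of Megf11 (fold 4.58). Rab33b, a Golgi GTPase that also binds the autophagy machinery, had a 5′ UTR peak with pileup 16 in each list and fold 5.61 in COH and 4.47 in control. That site covered 51391356 to 51391656 on chromosome 3 in COH, with -log10 q 6.08, and 51391388 to 51391683 in control, with -log10 q 4.43. Rab40c, a Rab-like protein with a SOCS box that joins ubiquitin ligases, had pileup 27 and fold 6.14 in COH, against pileup 40 and fold 7.38 in control, with summits at -556 bp in COH and -617 bp in control. Rab40c was marked at 26138841 to 26139518 on chromosome 17 in COH, with -log10 q 11.1, and 26138701 to 26139518 in control, with -log10 q 19.9, and it had the highest control pileup of the members other than Vps45. Fold and pileup rank sites within a list, so these pairs are set side by side and no change is read from them.

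The remaining Rab genes were marked in a single retina or at different sites. Rab8b, which acts in exocytic and ciliary transport, had a peak in intron 1 at 7699 bp from the TSS in COH (fold 5.06) and a promoter peak in control (fold 5.51), 7.52 kb apart. Rab10, its relative in exocytosis, had a promoter peak in COH alone, at 3359713 to 3360204 on chromosome 12, with pileup 16 and fold 5.45, and the nearest control peak was 496 kb away. Control alone had start-site peaks at Rab8a (fold 6.13), Rab11b (6.04), Rab14 (6.10), the early endosome genes Rab5b (6.38) and Rab4b (5.32), the Golgi genes Rab30 (5.94) and Rab43 (4.93), and Rab28 (6.15), a cone dystrophy gene in humans. By fold, the highest start-site peak of the members was that of Rab11fip2 in control, while Rab40c in control had the higher pileup and -log10 q. This Rab11 effector, which links recycling endosomes to myosin Vb, had pileup 25 and fold 9.03 at 59931506 to 59932140 on chromosome 19, rank 196 of 3078, and the nearest COH peak was 1283 kb away.

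The Vps peaks fell on single genes of several complexes. Of the 4 retromer core genes, 1 had a peak in COH and 1 in control, in both Vps26a. Vps26a had overlapping promoter peaks, with pileup 17 and fold 5.38 in COH, against pileup 19 and fold 5.22 in control. They ran over 62322285 to 62322889 on chromosome 10 in COH, with -log10 q 6.04, and 62322252 to 62323035 in control, with -log10 q 6.59. Its paralogue Vps26c, 1 of 2 retriever genes, had a promoter peak in COH alone, at 94327158 to 94327780 on chromosome 16, with pileup 17 and fold 5.77. Of the 4 Vps13 genes, which encode bridge-like lipid transfer proteins, Vps13c (fold 5.54) and Vps13d (4.87) had promoter peaks in COH and none of the 4 had a peak in control. Vps37a, 1 of 9 ESCRT genes with a Vps name, whose complexes sort ubiquitinated cargo, also had a promoter peak in COH alone (fold 4.82). Vps8, 1 of 7 genes of the HOPS and CORVET tethers, had a promoter peak in control alone (fold 5.73). The other members of HOPS and CORVET and all 5 GARP and EARP genes had none in either list.

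Vps45 held the strongest member peak in both retinas, and it lay inside the gene. The gene encodes a Sec1/Munc18-like protein that assists syntaxin 16 at the trans-Golgi network. The peak fell in intron 7 of 14, at 95951860 to 95952273 on chromosome 3 in COH and 95951874 to 95952275 in control, 13505 and 13503 bp from the TSS. It reached pileup 37, fold 13.0 and -log10 q 29.95 in COH, against pileup 42, fold 11.97 and -log10 q 31.3 in control. It ranked 64 of 1711 in COH and 98 of 3078 in control, and the next members were Rab1a at 319 in COH and Rab11fip2 at 196 in control. Its syntaxin partner Stx16 had a promoter peak in COH alone (fold 4.83).

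Sorting nexins bind phosphoinositides on endosomes and had 1 gene in COH and 6 in control. Control start-site peaks were at Snx2 (fold 6.48), a partner of retromer, Snx12 (5.88), Snx3 (5.30), which sorts the Wnt carrier Wntless, Snx25 (5.11), Snx24 (4.84) and Snx9 (4.35), which works with dynamin in endocytosis. Snx25 was the member also found in COH, through a peak at -11286 bp from its TSS (fold 5.38) that lay 11.0 kb from the control peak.

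The coats of the early secretory pathway met at Sec16a and Copg2. Sec16a, the scaffold of ER exit sites, had a promoter peak with pileup 18 and fold 4.64 in COH, against pileup 27 and fold 4.84 in control. This site extended over 26335375 to 26335809 on chromosome 2 in COH, with -log10 q 5.07, and 26335080 to 26335964 in control, with -log10 q 8.37. The COPII coat genes Sec23a (5.10) and Sec23b (4.33) had promoter peaks in control alone. Copg2, a COPI subunit, had a 5′ UTR peak with pileup 10 and fold 4.20 in COH, against pileup 12 and fold 4.90 in control. It was the weakest COH member by fold, rank 1520 of 1711. Its coordinates were 30873274 to 30873659 on chromosome 6 in COH, with -log10 q 2.44, and 30873356 to 30873719 in control, with -log10 q 4.04. Copb1 (6.60), Copb2 (5.37) and Arf1 (4.64), the GTPase that loads COPI onto the Golgi, had start-site peaks in control alone.

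Sec genes of protein entry into the ER had peaks at different genes in the lists. Sec61a2, a channel-forming subunit of the translocon, had a promoter peak in COH alone (fold 4.85). Sec61b (5.73), Sec62 (5.29) and Sec63 (4.56), which belong to or assist the translocon, and Sec11a (7.08), the catalytic subunit of signal peptidase, had start-site peaks in control alone. The Sec11a peak had pileup 21 and -log10 q 10.6, at 80597307 to 80597742 on chromosome 7. Another control peak assigned to Sec63 lay at -82195 bp in a 5′ UTR (4.61). Of the Sec22 relatives, Sec22c had an intronic peak in COH (4.25) and Sec22a a 5′ UTR peak in control (4.94).

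Adaptor subunits link clathrin or other coats to cargo. Of the 26 that the naming rule covers, none had a start-site peak under its own name in COH, while the AP-2 subunits Ap2a1 and Ap2a2, which the rule leaves out, did and are given below. Ap4e1, of the AP-4 complex at the trans-Golgi network, had a distal peak at -7720 bp (fold 5.77) and an intronic peak at 18952 bp (fold 6.44) in COH and none in control. Ap1s3 had an intronic peak within Wdfy1, at -44160 bp, in COH (fold 4.78) and a promoter peak in control (6.53). The AP-1 genes Ap1g1 (fold 7.27, pileup 19) and Ap1s2 (4.41), the AP-3 gene Ap3s1 (6.24), the AP-4 gene Ap4b1 (5.42) and the AP-5 gene Ap5b1 (3.54) had start-site peaks in control alone by gene name. Ap1g1, with -log10 q 10.0, was marked at 110505256 to 110505607 on chromosome 8, and its nearest COH peak was 4142 kb away, the longest such distance among members. The control Ap4b1 peak nevertheless overlapped a COH peak by 156 bp, with summits 38 bp apart, and that COH peak, with pileup 13 and fold 5.59, had been assigned to the predicted gene Gm43064, whose start lies beside it. The pair at Ap4b1 occupied 103716933 to 103717318 on chromosome 3 in COH, with -log10 q 5.10, and 103716426 to 103717088 in control, with -log10 q 5.97.

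Fusion genes gave 2 shared promoters. Vamp3, the vesicle SNARE of recycling endosomes, had pileup 10 and fold 5.14 in COH, against pileup 18 and fold 5.98 in control, with summits 27 bp apart. The Vamp3 peak occupied 151142264 to 151142559 on chromosome 4 in COH, with -log10 q 3.64, and 151142077 to 151142721 in control, with -log10 q 7.55. The synaptic calcium sensor Syt1 had pileup 12 and fold 4.64 in COH, against pileup 19 and fold 4.68 in control. Syt1 signal lay at 108846629 to 108847170 on chromosome 10 in COH, with -log10 q 3.45, and 108846420 to 108847777 in control, with -log10 q 5.62. The control peak of Syt1 was 1359 bp long, the longest of the member peaks, and its summit lay 905 bp from the COH summit. Among those in control alone were Vamp9 (5.18) and Syt14 (6.34) at their starts and Syt16 in intron 1 (6.45).

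**Figure D2:**
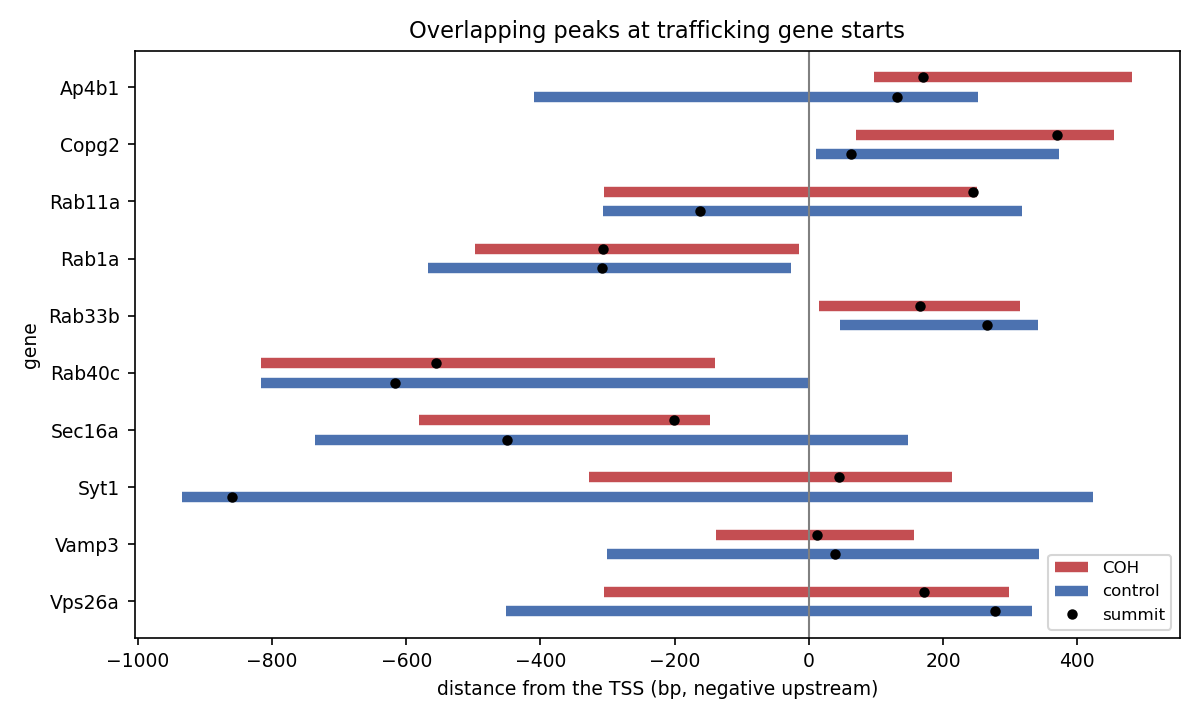
Extent of the COH and control peaks (bars) and their summits (points) in bp from the TSS of the member, for the 10 overlapping pairs near a start; Vps45, 13505 bp into its gene, is left out. The Rab1a summits coincide, while those of Syt1 are 905 bp apart; the COH bar at Ap4b1 is the peak assigned to Gm43064.

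Member peaks overlapped a peak of the other list in 11 places, among them Ap4b1, where the COH peak was named for Gm43064. In COH 10 of 23 member peaks (43.5%, 23.2 to 65.5) shared 1 bp or more with a control peak, beside 61.8% of all COH peaks. In control 11 of 49 (22.4%, 11.8 to 36.6) overlapped a COH peak, beside 34.3% of all control peaks. By gene, 59.1% (36.4 to 79.3) of the COH members were also named in control, beside 65.5% of all COH genes, and 27.7% (15.6 to 42.6) of the control members were also named in COH, beside 32.7%. All 4 intervals include the value over the whole list. Overlapping summits of members lay 1 to 905 bp apart with a median of 99 bp, beside a median of 71 bp over all 1060 pairs. Ap1s3, Rab8b and Snx25 were named in both lists with peaks 7.52 to 44.0 kb apart.

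Among control peaks of trafficking genes, those without a COH partner were about as strong by fold as those with one. Member peaks without overlap had a median fold of 5.44 in control, against 5.22 for the 11 that overlapped. Over all control peaks the median folds were 4.95 without and 6.05 with overlap. By other scores the overlapping control member peaks were higher, with median pileup 19 against 17 and -log10 q 7.20 against 6.45. In COH the median fold of member peaks was 5.26 with and 5.06 without overlap. Within 1000 bp of a TSS, 6 of 28 control member peaks above the median fold of such peaks (21.4%, 8.30 to 41.0) overlapped a COH peak, and 4 of 16 at or below it (25.0%, 7.27 to 52.4). Over all control peaks near a TSS these shares were 40.7% (37.6 to 44.0) and 21.7% (19.2 to 24.5). The difference between members and all peaks was not tested, and the intervals of the stronger peaks overlap. Of the 38 control member peaks without overlap, 29 (76.3%) were more than 100 kb from any COH peak, beside 83.5% of all control peaks without overlap.

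**Figure D3:**
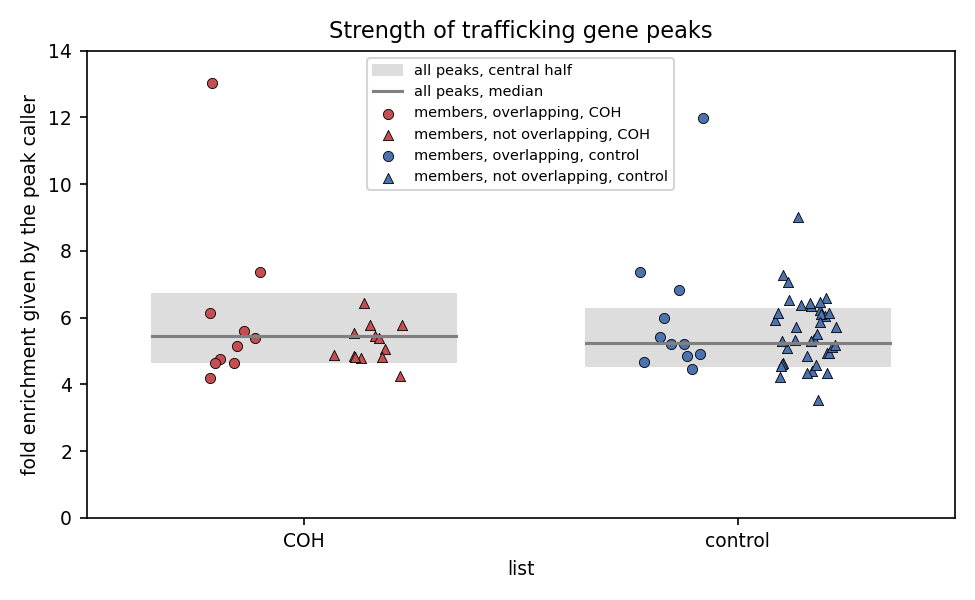
Fold enrichment of each member peak (y axis) in COH and in control, with circles for peaks that overlap the other list and triangles for those that do not; the grey band and line give the interquartile range and median of all peaks of the list. Vps45 stands highest in both lists, and in control the next highest point is a triangle, Rab11fip2 at 9.03, above the other circles, which end at 7.38 (Rab40c).

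Member peaks were otherwise of ordinary strength and sat at gene starts. Their median fold was 5.14 in COH (4.20 to 13.0) and 5.37 in control (3.54 to 11.97), beside 5.45 and 5.24 over all peaks of the COH and control lists. Within 1000 bp of the TSS lay 16 of 23 COH member peaks (69.6%, 47.1 to 86.8) and 44 of 49 control member peaks (89.8%, 77.8 to 96.6), beside 51.1% and 61.6% of all COH and control peaks. Promoters held 14 COH (60.9%) and 33 control (67.3%) member peaks, beside 40.6% and 46.9% of all COH and control peaks. In 5′ UTRs lay 3 COH (13.0%) and 13 control (26.5%) member peaks, beside 11.6% and 17.4%. Introns held 5 COH (21.7%) and 3 control (6.12%) member peaks, beside 16.4% and 11.9%. Of the COH member peaks 1 (4.35%) was distal and of the control ones 0, beside 26.7% and 18.5%. No member peak lay in a cluster of at least 5 peaks within 100 kb, beside only 3.10% of all COH peaks and 1.92% of all control peaks.

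Trafficking genes outside the naming rule were counted in the same way. Of 291 such genes in 7 lists, 25 (8.59%, 5.64 to 12.4) had a COH peak and 64 (22.0%, 17.4 to 27.2) a control peak, beside 5.38% and 10.8% of all protein-coding genes, with 14 in both. The list was not tested against other genes, and the longer control list names more genes of any kind. Clathrin and endocytosis genes had 6 of 37 in each retina, and 4 of them were the same genes. These were Cltc, the clathrin heavy chain (fold 6.10 in COH, 6.52 in control), its assembly proteins Picalm (6.42 in COH, 7.10 in control) and Snap91 (6.17 in COH, 7.07 in control), and the AP-2 subunit Ap2a1 (6.02 in COH, 5.05 in control). All 4 had overlapping peaks at their starts. Ap2a2 and Itsn1 were marked in COH alone by name, and the Itsn1 peak overlapped a control peak that carried another gene's name.

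Rab regulators had 7 of 61 (11.5%) in COH and 17 (27.9%) in control, and those in both were Chml (7.54 in COH, 5.90 in control), Madd (7.10 in COH, 6.71 in control), Dennd4a (5.12 in COH, 6.05 in control) and Tbc1d14, whose intronic peak in the neighbouring gene, at -37108 bp in COH and -37103 bp in control, had fold 13.7 in COH and 13.0 in control. A further overlapping pair of Tbc1d14 lay in a 5′ UTR (7.50 in COH, 5.72 in control). Arf regulators and Arl genes had 4 of 50 in COH and 12 in control, with the Arf exchange factor Cyth1 in both (5.04 in COH, 4.24 in control) and Arl6 (8.26, at -144384 bp) the strongest in control. Vesicle fusion and release genes had 6 of 49 in COH and 13 in control. The shared ones were Stxbp5l, which encodes tomosyn-2 (8.15 in COH, 8.10 in control), the active zone protein gene Erc1 (6.61 in COH, 10.2 in control), Snap29 (4.39 in COH, 4.77 in control) and Sv2b (4.17 in COH, 5.70 in control), and the active zone gene Pclo (7.55) and the SNARE gene Vti1a (7.52, in an intron) were marked in control alone. ER exit and cargo return genes had 2 of 29 in COH and 7 in control, and the COPII GTPase Sar1a was in both (4.99 in COH, 4.74 in control). Tethering complexes had 0 of 44 in COH and 5 in control, led by Eea1 (7.46), and ESCRT genes outside the Vps names 0 of 21 in COH and 4 in control, led by Stam (7.29).

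The promoters of the members were rich in G and C whether or not they carried a peak. The RefSeq table had a promoter window (250 bases before to 50 after the start, first entry of each gene) for 190 of the 242 members. The 13 members with a COH peak within 1000 bp of the TSS had a median G and C content of 66.3%. It was 64.0% for the 38 with a control peak and 62.0% for the 147 with neither, beside 56.3% over 17492 protein-coding genes. Over all genes with a peak near the TSS the median was 66.7% in COH and 65.7% in control. A GC box was found in 12 of the 13 COH windows and in 30 of the 38 control windows (78.9%, 62.7 to 90.4). It was found in 103 of the 147 with neither (70.1%, 62.0 to 77.3), beside 46.3% of all windows. All genes with a peak near the TSS had a GC box in 80.4% (COH) and 78.8% (control), much as the members did. An ETS core was found in 2 of 13 and 10 of 38 (26.3%, 13.4 to 43.1). It was found in 28 of the 147 with neither (19.0%, 13.0 to 26.3), beside 11.9% of all windows. For all genes with a peak near the TSS the ETS shares were 12.6% in COH and 15.5% in control. The CCAAT box was found in 5 of 13, 17 of 38 and 50 of 147, beside 39.0%, and the E-box CACGTG in 1 of 13, 4 of 38 and 21 of 147, beside 7.90%. The cyclic AMP response element TGACGTCA was found in 0 of 13, 0 of 38 and 5 of 147, beside 2.34%, the NRF1 motif in 0 of 13, 0 of 38 and 1 of 147, beside 1.32%, and the TATA box TATAAA in 1 of 13, 0 of 38 and 8 of 147, beside 13.3%. Such matches are letters in a window and not shown to be bound sites, and members with and without a peak had overlapping intervals for the GC box and the ETS core.

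**Figure D4:**
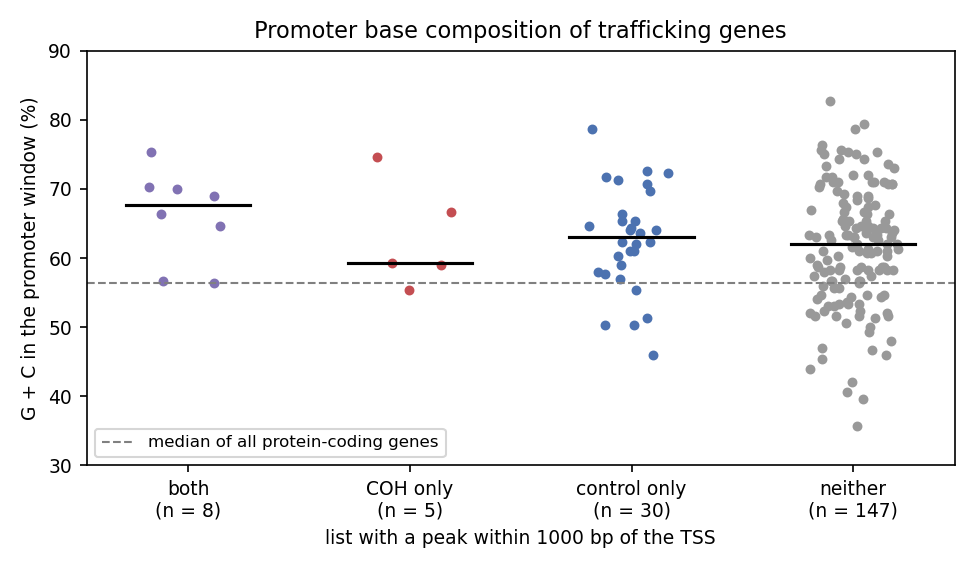
G and C content of the RefSeq promoter window of each member (y axis, percent), by the list with a peak within 1000 bp of the TSS; black lines are group medians and the dashed line the median of all protein-coding genes, 56.3%. Every group median lies above that line, the group with neither peak included (62.0%).

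Peaks at a few defining marker genes of retinal cell types were counted. The counts cannot check the tissue, since a peak does not measure expression. Rod photoreceptor markers had a peak at 0 of 8 in both lists, and ganglion cell markers at 0 of 8 in COH and 1 of 8 in control (Nefm). Müller glia had 1 of 4 in each list (Aqp4 in COH, at -78433 bp, and Glul in control, at its promoter), and microglia 0 of 4 in COH and 1 of 4 in control (P2ry12). Over the 24 markers this made 4.17% (0.105 to 21.1) in COH and 12.5% (2.66 to 32.4) in control, near the 5.38% and 10.8% of all protein-coding genes, and whether the trafficking peaks come from neurons, glia or other cells was not tested.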

How the data were processed

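CUT&Tag libraries, amplified with 15 PCR cycles per the labels, were represented by the authors' peak list for each library. The submitters' processing notes name cutadapt 1.9.1, Bowtie2 and mm9; for the peak caller, no name was given in the sources used here. The authors deposited for each peak a signal (pileup), a fold (ratio to background), and -log10 of p and of q; the last 2 columns had a broken heading and were read from their place. Positions, distances, annotation classes and genes (other values) are the authors', per the file headers. The number of reads is unknown. The lowest -log10 q was 1.82 in COH and 2.00 in control.

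Members and lists were chosen with earlier results of these data known. Members with a peak are named, apart from 1 that is not reported here; full values go to those in both lists and the strongest, and of genes outside the rule those in both lists and of highest fold are named; Ap2a2 and Itsn1 were chosen after their values were seen. Symbols were matched to RefSeq (GRCm38.p6) by name or unique synonym. Peaks were shared if they overlapped by at least 1 bp. The overlap step was tested on simulated data. Alternatives were stronger peaks, equal numbers of peaks, TSS limits, stricter or looser overlap, and removal of clustered peaks. Python 3.11.15, pandas 2.3.3 and SciPy 1.17.1 were used.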

Additional observations from a re-analysis of the deposited data

How the results depend on the processing

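No paired analysis was possible because each condition has 1 library. The main values were 22 members in COH, 47 in control and 13 in both, a median fold of 5.14 in COH, and overlap of 43.5% of COH and 22.4% of control member peaks. Of 46 recomputed values, 38 stayed within a set tolerance of the main one: within 1.5 times for a count, the exact 95% interval for a share, and the members' interquartile range for a median fold. Some of the 38 could not move, so this count overstates stability. No member peak was clustered, so removing clusters left the member counts, folds and TSS shares fixed. Equal numbers kept the whole COH list, which fixed its member count and TSS share. Among peaks above the median fold of their own list, 8 members (3.31%) had a peak in COH and 28 (11.6%) in control. The shares of all protein-coding genes were 2.64% in COH and 5.28% in control. Of the members 2 were in both. In COH 22.2% and in control 10.7% of member peaks overlapped the other list, beside 65.7% and 36.5% of all such peaks. With a -log10 q of at least 5, 10 members (4.13%) had a COH peak and 36 (14.9%) a control peak, beside 3.19% and 6.84% of all protein-coding genes. In that setting 5 members were in both, and the median fold of COH members was 5.77. Both settings shorten the lists by construction, and in both the COH share of members lay closer to that of all genes than in the main setting. With the 1711 strongest peaks of each list, 22 members (9.09%) had a peak in COH and 33 (13.6%) in control. The shares of all protein-coding genes were then 5.38% and 5.88%. Here 9 members were in both, and 26.1% of COH and 21.2% of control member peaks overlapped, beside 46.3% and 46.1% of all peaks. For these settings the share of all protein-coding genes in both lists was not computed. The falls from 13 members in both are therefore not read as particular to trafficking genes. With a reciprocal overlap of 50% the shares of member peaks were 30.4% in COH and 14.3% in control. A stricter overlap can only lower such a share, and the share over all peaks was not computed for it. Vps genes numbered 3 to 6 in COH and 2 to 3 in control, higher in COH under each of the 6 alternatives. That direction could not change when clusters were removed. Nor could it with equal numbers, which can only remove control peaks. The other alternatives were parts of the same lists, so they give no separate support. The lists hold only peaks past a threshold and 1 library each, so a peak missing from COH or control is not shown to be absent.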
